A study of Homo sapiens with 8 samples.

Results

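Small nucleolar RNAs (snoRNAs) and small Cajal body RNAs (scaRNAs) were described in RNA-seq of CTCF-AID2 SEM cells, a human KMT2A-rearranged B-cell acute lymphoblastic leukemia line. The members were chosen by their measured level, as the genes annotated as snoRNA or scaRNA with a TPM (a level per transcript length, with the same total in every library) of 1 or more in any of the 8 libraries. This gave 217 members of 991 such genes in a table of 60754 rows. By symbol, 34 were SNORD (box C/D snoRNAs), 121 were SNORA (box H/ACA snoRNAs), 22 were SCARNA and 40 carried other symbols, all of them Rfam family numbers such as RF00056. The file called 196 members snoRNA and 21 scaRNA, with 3 SCARNA symbols under snoRNA and 2 Rfam symbols under scaRNA.

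The cells were of 2 clones, C17.2 and C3.2, each a line that is 1 clone. Both carried miniAID-mClover3 fused to the 3′ end of both endogenous *CTCF* alleles and a lentiviral OsTIR1(F74G)-P2A-Zeocin resistance cassette under the MND promoter. Parental cells of C17.2 and C3.2 were untreated, and resistant cells had been kept in 1 µM 5-Ph-IAA, the auxin analog that triggers degradation of the tagged protein, with 100 µg/ml Zeocin for 36 days before drug washout. The study states that resistant C17.2 cells express a truncated CTCF without the tag beside the tagged full-length CTCF, which returned after washout, and resistant C3.2 cells a full-length CTCF with a mutated tag. There were 2 libraries in each of the 4 groups, 8 in all. The labels do not say that 2 libraries of a group were separate cultures, so p-values measure only the spread between libraries, which may be technical. The library names of C17.2 and C3.2 carry numbers from separate ranges, and the labels do not say what these mark. Clone and any batch that the library numbers mark cannot be told apart.

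snoRNAs are short nuclear RNAs that guide chemical modification of ribosomal RNA (rRNA). Box C/D snoRNAs bind NOP56, NOP58, SNU13 and the methyltransferase FBL and direct ribose methylation, whereas box H/ACA snoRNAs bind GAR1, NHP2, NOP10 and the pseudouridine synthase DKC1. scaRNAs use the same protein sets in Cajal bodies on spliceosomal RNAs. A few, including U3 (*SNORD3*), U8 (*SNORD118*) and U17 (*SNORA73*), act in the cleavage of the rRNA precursor. In human cells most are cut out of introns of host genes after splicing, and because they lack a poly(A) tail they are mostly seen in libraries made without poly(A) selection, such as the rRNA-depleted ones here.

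The sequences below carry the results that follow. They are the transcript letters of Gencode release 44 on GRCh38, 5′ to 3′, with the 3′ terminal ACA of box H/ACA members (any of the last 10 bases) and, for box C/D members, the C box TGATGA (first 25 bases) and the D box CTGA (last 20 bases) in capitals where those letters were found. *SNORA84* (chr9:92292461-92292593, minus strand) fell in both clones. *SNORA22B* (chr7:56055365-56055502, plus strand) rose in C17.2 and *SNORA47* (chr5:77080434-77080571, minus strand) fell in C3.2. *SNORA67* (chr17:7577955-7578091, plus strand) and *SNORD10* (chr17:7576811-7576952, plus strand) come from 1 host, *EIF4A1*. *SNORD17* (chr20:17962710-17962946, minus strand) is the longest intron-encoded box C/D member of the 5 highest.
SNORA84: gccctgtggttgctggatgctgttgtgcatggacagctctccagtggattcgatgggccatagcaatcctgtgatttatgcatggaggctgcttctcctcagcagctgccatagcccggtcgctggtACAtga
SNORA22B: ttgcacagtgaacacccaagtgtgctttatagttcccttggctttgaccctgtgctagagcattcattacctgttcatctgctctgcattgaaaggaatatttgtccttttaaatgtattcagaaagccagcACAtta
SNORA47: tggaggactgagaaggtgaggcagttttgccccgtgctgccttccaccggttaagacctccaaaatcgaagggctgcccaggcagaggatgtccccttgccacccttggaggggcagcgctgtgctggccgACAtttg
SNORA67: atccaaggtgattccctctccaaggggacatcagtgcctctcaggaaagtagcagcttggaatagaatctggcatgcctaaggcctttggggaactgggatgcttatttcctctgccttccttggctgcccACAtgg
SNORD10: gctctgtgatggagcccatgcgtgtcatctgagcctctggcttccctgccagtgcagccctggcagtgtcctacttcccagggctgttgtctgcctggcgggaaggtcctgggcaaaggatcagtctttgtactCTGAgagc
SNORD17: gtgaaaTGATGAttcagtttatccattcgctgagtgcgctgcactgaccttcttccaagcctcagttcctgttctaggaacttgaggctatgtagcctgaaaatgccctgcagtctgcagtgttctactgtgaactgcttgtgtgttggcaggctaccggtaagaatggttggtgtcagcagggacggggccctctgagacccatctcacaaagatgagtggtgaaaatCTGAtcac

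The next set shows relatives. *SNORA71A* (chr20:38427309-38427442, minus strand), *SNORA71C* (chr20:38429670-38429803, minus strand), *SNORA71D* (chr20:38433865-38433998, minus strand) and RF00056, named SNORA71 in Gencode release 44 (chr20:38421647-38421774, minus strand), all lie in *SNHG17*. *SNORA71A* matched *SNORA71C* at 83.5% of aligned positions and *SNORA71D* at 83.2%, and RF00056 matched these 3 at 74.6% to 75.2%. *SNORA73A* (chr1:28507366-28507571, plus strand) and *SNORA73B* (chr1:28508559-28508762, plus strand), the 2 copies of U17 in *SNHG3*, were 93.2% identical. RF00056 has no ACA in its last 10 annotated bases.
SNORA71A: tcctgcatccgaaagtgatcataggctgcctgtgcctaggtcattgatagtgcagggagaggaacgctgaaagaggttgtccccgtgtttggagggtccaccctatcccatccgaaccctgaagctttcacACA
SNORA71C: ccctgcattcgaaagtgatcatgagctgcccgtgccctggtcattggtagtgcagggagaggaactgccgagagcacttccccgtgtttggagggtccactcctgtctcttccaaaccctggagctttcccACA
SNORA71D: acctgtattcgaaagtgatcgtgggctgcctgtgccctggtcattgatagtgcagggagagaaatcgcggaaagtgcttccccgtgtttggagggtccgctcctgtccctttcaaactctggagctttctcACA
RF00056: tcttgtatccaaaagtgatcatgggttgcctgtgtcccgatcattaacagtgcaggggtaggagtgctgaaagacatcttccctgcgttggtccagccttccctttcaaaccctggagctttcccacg
SNORA73A: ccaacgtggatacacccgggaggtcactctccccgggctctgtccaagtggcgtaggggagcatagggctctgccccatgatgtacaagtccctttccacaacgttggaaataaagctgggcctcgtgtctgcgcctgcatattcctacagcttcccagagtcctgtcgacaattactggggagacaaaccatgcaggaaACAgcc
SNORA73B: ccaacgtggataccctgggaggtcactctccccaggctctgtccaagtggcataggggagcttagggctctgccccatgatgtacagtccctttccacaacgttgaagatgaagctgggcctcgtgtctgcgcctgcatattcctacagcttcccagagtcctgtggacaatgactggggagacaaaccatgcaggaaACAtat

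*SNORA64* (chr16:1962973-1963106, minus strand), in *RPS2*, was listed above 0 in 1 clone only. *SNORD116-3* (chr15:25056860-25056954, plus strand) has the same letters as *SNORD116-9*, and the 2 rows held the same TPM in every library, as did the other 2 pairs of members with identical sequence, *SNORD116-5* with *SNORD116-7* and *SNORA15B-1* with *SNORA15B-2*. For such copies the values are those of the pair and cannot be divided between them.
SNORA64: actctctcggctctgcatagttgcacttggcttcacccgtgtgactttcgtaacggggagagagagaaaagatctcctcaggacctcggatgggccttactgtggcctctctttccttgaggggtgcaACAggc
SNORD116-3: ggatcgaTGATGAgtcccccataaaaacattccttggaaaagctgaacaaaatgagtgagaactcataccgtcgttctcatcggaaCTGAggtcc

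Box letters followed the classes. An ACA within the last 10 bases was found in 109 of 121 SNORA members (90.1%), against 135 of all 150 annotated SNORA rows, and in 2 of 34 SNORD members (5.88%). TGATGA near the start together with CTGA near the end was found in 21 of 34 SNORD members (61.8%, against 67.0% of the 282 annotated SNORD rows) and in 0 of 121 SNORA members. Of the 40 members with Rfam symbols, 28 had the ACA and 0 had both box C/D motifs, whereas 42.5% and 5.81% of the 534 annotated rows of this kind with a sequence did.

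Length separated the members from many of the genes left out. Of the 361 annotated snoRNA and scaRNA genes shorter than 95 bases, 0 had any TPM in any library, against 22 of 109 genes of 95 to 119 bases and 200 of 520 genes of 120 bases or more. The whole table showed the same edge, with 3 of 2515 rows under 95 bases above 0. Annotated SNORD genes had a median length of 82 bases and SNORA genes of 134, and 34 of 282 SNORD genes (12.1%) but 121 of 150 SNORA genes (80.7%) were members. Whether length made this difference was not tested. *MEG8*, whose introns hold 40 of the SNORD genes, was itself at 0 in all libraries but C17.2 resistant 1 (0.17 TPM). *SNHG29*, whose 3 snoRNAs were also under 95 bases, had 405 to 576 TPM. Among SNORD genes of 120 bases or more, 14 of 20 were members. A box C/D snoRNA listed at 0 here is not taken as a measurement of its absence. The values just inside the rule were highest TPMs of 1.1 and 1.25, and those just outside were 0.90 and 0.82.

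The edge also moved between libraries. The shortest snoRNA or scaRNA above 0 had 95 or 96 bases in C17.2 parental 1 and 2, C17.2 resistant 1 and C3.2 parental 1, 99 bases in C17.2 resistant 2, 104 bases in C3.2 parental 2 and C3.2 resistant 1, and 114 bases in C3.2 resistant 2. In C3.2 resistant 2, 80 members were at 0, against 36 to 61 in the other libraries, and 21 of the 22 members under 120 bases were among them. That library stands apart, and results that rest on short members are given with this in view.

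**Figure D1:**
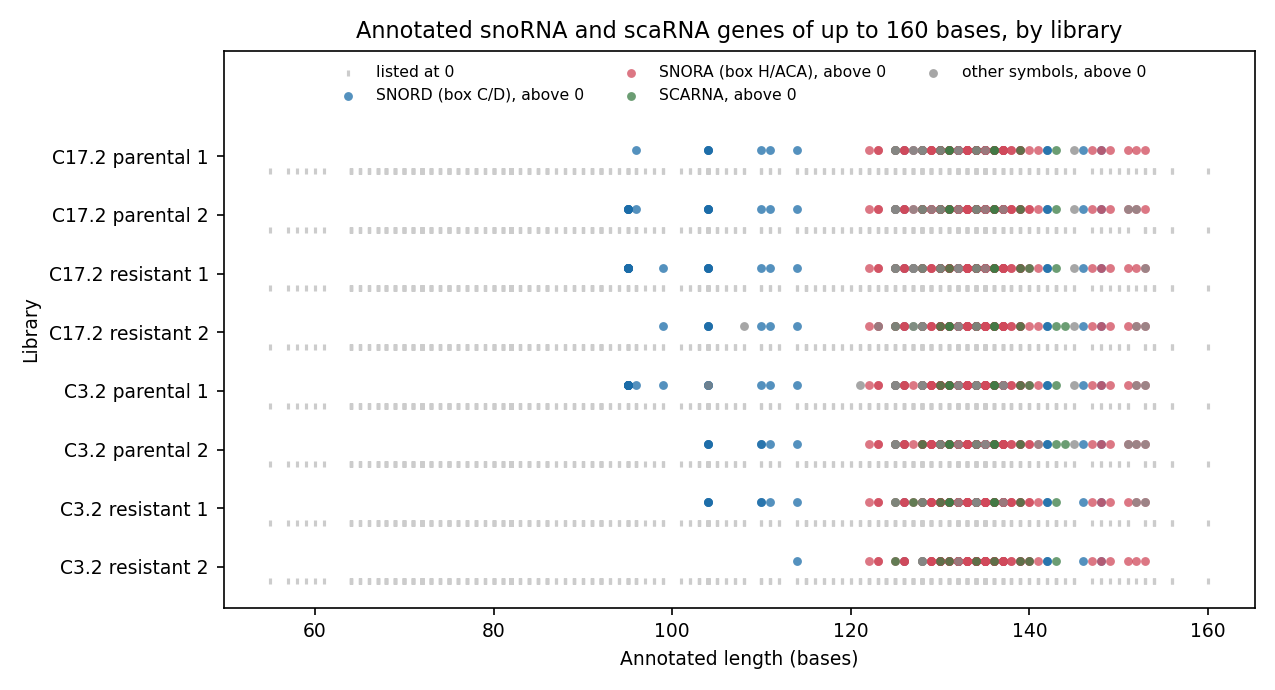
Each annotated snoRNA or scaRNA gene of up to 160 bases by its annotated length in bases (horizontal axis) in each library (rows). Colored points are genes above 0 TPM, by class, and gray ticks are genes listed at 0; points begin at 95 to 99 bases in 5 libraries, at 104 in 2 and at 114 in C3.2 resistant 2.

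*SNORD13* (U13), which guides acetylation of the small-subunit rRNA, lies near this edge. It is annotated with 104 bases and had 1682 and 1988 TPM in C17.2 parental, 1348 and 1679 in C17.2 resistant, 2445 and 2613 in C3.2 parental, and 2039 and 0 in C3.2 resistant. The other 7 libraries held 1348 TPM or more, and the fitted log2 change in C3.2 of -5.93 had an SE of 3.09 (adjusted p = 0.272, limma). *SNORD46*, *SNORD9*, *SNORD8* and *SNORD67*, of 104 to 111 bases, were likewise above 0 in the same 7 libraries and at 0 in C3.2 resistant 2. No fall is read from any of them. How length entered the TPM of genes this short is not given, so their levels beside longer genes are uncertain.

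The imprinted *SNORD116* copies in *SNHG14*, the cluster of the Prader-Willi locus, have 95 or 96 bases. All 9 members of this cluster were at 0 in at least 5 of the 8 libraries. *SNORD116-3* was listed at 70.6 TPM in C17.2 parental 2, 86.0 in C17.2 resistant 1 and 105 in C3.2 parental 1, and at 0 in the other 5. Neither state nor clone separated these libraries. Their host *SNHG14* fell by 0.62 on the log2 scale in resistant C17.2 (SE 0.049, adjusted p = 0.000456, limma), with 85.7 and 82.5 TPM in parental and 57.8 and 64.1 in resistant libraries. No member of the *SNORD115*, *SNORD113* or *SNORD114* clusters passed the rule.

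The levels of the members were very unequal. The highest member, *SNORD3A*, made up 15.7% of the TPM of all members summed over the libraries, the 3 highest 41.5% and the 10 highest 64.4%. The mean TPM over the 8 libraries was at least 100 in 52 members and at least 5 in 152. Above 0 in all 8 libraries were 119 members, and 31 reached a TPM of 1 in 1 group only.

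U3, which the rRNA precursor needs for its first cleavages, was the highest of the box C/D RNAs. *SNORD3A* had 3612 and 3520 TPM in C17.2 parental, 4988 and 3905 in C17.2 resistant, 10212 and 9208 in C3.2 parental and 10134 and 13180 in C3.2 resistant libraries. All 4 C3.2 libraries were above all 4 C17.2 libraries. The related copy *SNORD3C* is annotated with 581 bases against 699 for *SNORD3A*. At 580 positions the letters matched, so the copies are nearly identical over the shorter length. *SNORD3C* went the other way between clones, with 110, 128, 135 and 148 TPM in C17.2 and 69.2, 37.7, 50.7 and 23.1 in C3.2. Reads can be split between such related copies by the quantification, so the single-copy values are uncertain. The U3 members are annotated with 581 to 791 bases, longer than the mature RNA. Their TPM depends on the length used in the quantification, which is not given.

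U17 followed. *SNORA73A* had 4001, 3867, 4034 and 4517 TPM in C17.2 and 10219, 9538, 9135 and 7842 in C3.2. *SNORA73B* had 3905, 3763, 4054 and 4181 in C17.2 and 7552, 7506, 6574 and 5855 in C3.2, each time with the 2 parental libraries first. Both copies stood apart between clones without overlap. *SNORA63* of *EIF4A2* (1627 to 2001 TPM in C17.2 and 4172 to 4818 in C3.2), *SNORA48* of *EIF4A1* and *SNORA70* of *RPL10* completed the 5 highest SNORA members.

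The other high SNORD members were *SNORD13*, *SNORD17* (1173 to 1620 TPM), *SNORD15B* of the ribosomal protein gene *RPS3* (540 to 1106 TPM) and *SNORD10* (412 to 1070 TPM). Among SCARNA members *SCARNA10* (1004 to 1613 TPM), which carries both box C/D and box H/ACA domains, was the highest, ahead of *SCARNA16* (672 to 953), *SCARNA13* (330 to 472), *SCARNA5* (195 to 466) and *SCARNA2* (115 to 250). U8, encoded by *SNORD118* and needed for the large-subunit rRNAs, had 188, 134, 153 and 141 TPM in C17.2 and 203, 157, 256 and 334 in C3.2. *SNORD22* had 383 to 471 TPM in C17.2 and 722 to 989 in C3.2. *SCARNA10* and *SCARNA16* overlapped between clones, and *SNORD22* did not.

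**Figure D2:**
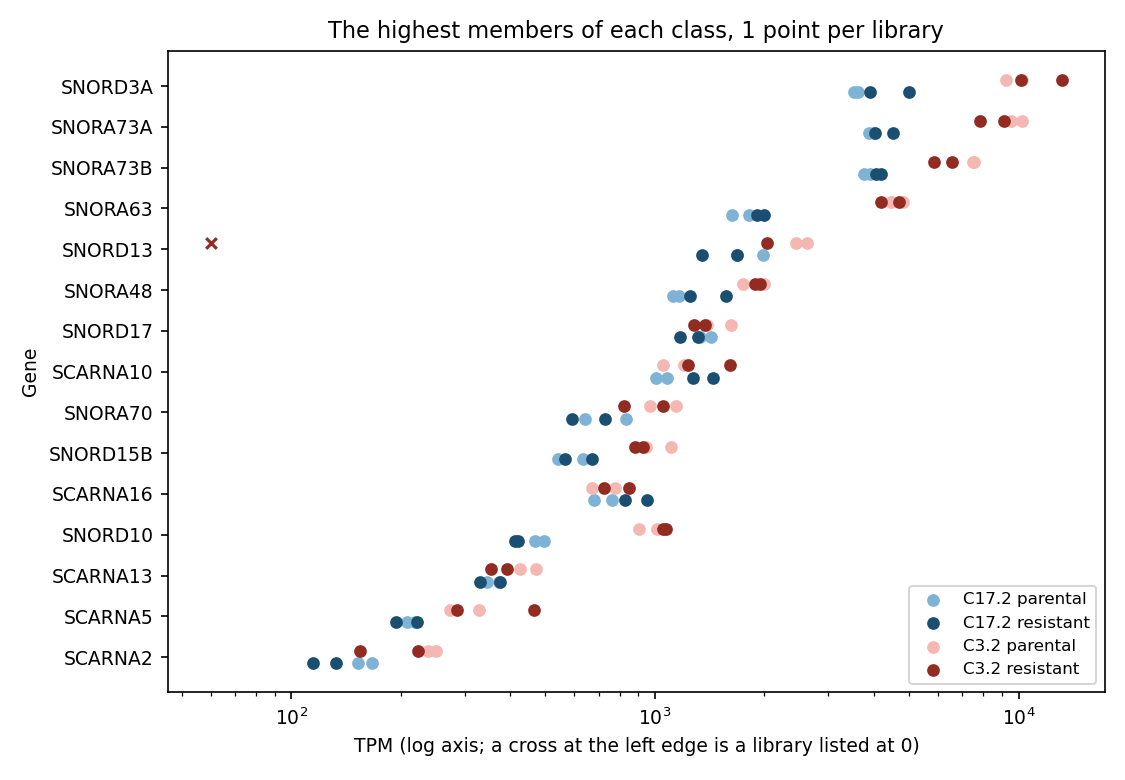
TPM of the 5 highest SNORD, SNORA and SCARNA members on a log axis, 1 point per library, colored by group. Points of *SNORD3A*, *SNORA73A* and *SNORA63* fall into separate ranges for C17.2 and C3.2, and *SNORD13* has a cross for C3.2 resistant 2, listed at 0.

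Summed over members, the TPM was 34697 and 34151 in C17.2 parental, 36955 and 35958 in C17.2 resistant, 60609 and 59820 in C3.2 parental and 57143 and 55010 in C3.2 resistant libraries. This was 3.42% to 3.70% of all TPM in C17.2 and 5.50% to 6.06% in C3.2. The SNORA sum was 20447 to 22104 in C17.2 and 31981 to 37252 in C3.2, and the SNORD sum 9907 to 11337 and 18250 to 19935. The SCARNA sums overlapped between clones (3106 to 3713 and 3493 to 4179). Those of the Rfam-named members ran the other way, 130 to 176 in C17.2 and 97.2 to 128 in C3.2. The 4 highest members, *SNORD3A*, *SNORA73A*, *SNORA73B* and *SNORA63*, held 48.3% of the TPM of all members, so few genes weigh most in these sums. Parental and resistant totals over all members differed far less than those of the clones did.

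**Figure D3:**
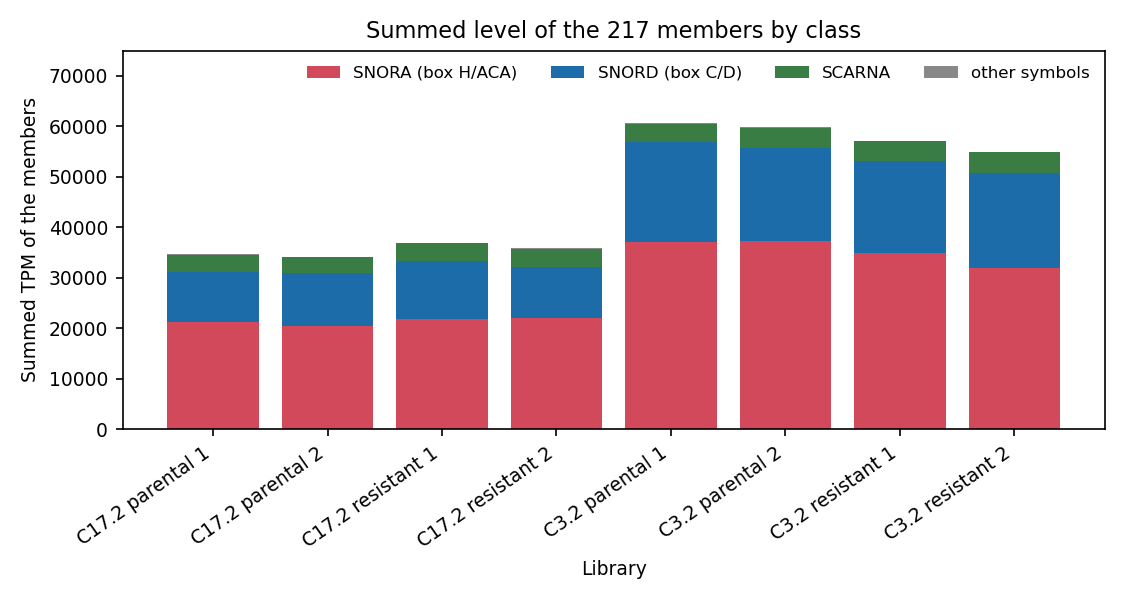
Summed TPM of the members in each library, stacked by class (SNORA, SNORD, SCARNA and other symbols). The C17.2 bars reach 34151 to 36955 TPM and the C3.2 bars 55010 to 60609, with SNORA the largest class in each.

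On scaled TPM, in which each library is divided by its trimmed-mean factor, 47 of 217 members (21.7%) had all 4 C3.2 libraries above all 4 C17.2 libraries, against 9.28% of the 15614 rows tested. The reverse held for 3 members, against 8.49% of all rows. They were *SNORD3C*, whose single-copy level is uncertain, and the low members RF00191 and RF01225, with mean TPMs of 2.92 and 5.61. On TPM as deposited the 2 counts were 33 and 8 members, where 1.88% and 23.7% of all rows stood apart, and without C3.2 resistant 2 they were 55 and 5, with 12.2% and 10.7% of all rows. Between the parental libraries alone 83 members (38.2%) were higher and 20 (9.22%) lower in C3.2, against 32.9% and 33.2% of all rows, and between the resistant libraries alone 65 (30.0%) and 21 (9.68%), against 29.5% and 29.8%. With 2 libraries a side the share higher in C3.2 was thus near that of all rows, and the share lower was below it. These counts describe the libraries, and clone and any batch that the library numbers mark cannot be told apart. The 47 were 32 SNORA, 9 SNORD and 6 SCARNA members, and 0 of them were under 120 bases. Among the 112 members with a mean TPM of at least 20 the median log2 ratio of C3.2 to C17.2 was 0.43, against 0.033 over the 4131 rows at that level.

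*SNORA64* was listed at 0 in all 4 C17.2 libraries and at 98.0, 57.1, 83.6 and 83.6 TPM in C3.2. It is the 1 member of the 47 that met the rule through C3.2 alone, so it had to differ, and nothing is read from it. *SNORA10*, the other member in *RPS2*, had 195, 137, 269 and 131 TPM in C17.2 and 315, 338, 356 and 364 in C3.2, whereas *RPS2* itself, a small-subunit ribosomal protein gene, had 2010 to 2592 and 1789 to 2177 TPM. *SNORA71A* was 4.09 times as high in C3.2 and *SNORA24* of *SNHG8* 3.76 times, on scaled means, while *SNHG17* was 1.20 times and *SNHG8* 1.01 times as high. Of the 47 members, 43 had a tested host, and that host stood apart in the same direction for 11, in the opposite direction for 3 (*SNORD97*, *SCARNA22* and *SNORA70I*) and overlapped between clones for 29.

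Related RNAs outside the rule were set beside the members. *TERC*, the telomerase RNA, which has an H/ACA domain, had 53.3, 51.8, 40.8 and 38.4 TPM in C17.2 and 66.0, 77.1, 65.9 and 45.0 in C3.2, so the clones overlapped. It fell by 0.56 on the log2 scale in resistant C17.2 (SE 0.15, adjusted p = 0.036, limma). *RPPH1*, the RNase P RNA, had 23220 to 28702 TPM in C17.2 and 24973 to 26854 in C3.2, again with overlap, and fell by 0.37 in resistant C17.2 (SE 0.089, adjusted p = 0.0251, limma). *RMRP*, the RNA of RNase MRP, has 2 rows that went opposite ways. The first had 7173 to 8385 TPM in C17.2 and 13155 to 18521 in C3.2, and the other 3308 to 3627 and 1185 to 1686. Both rows carry the same symbol and reads can be split between them, so neither direction is read as that of the RNA.

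Resistant cells were then compared with parental cells within each clone. Each contrast was fitted across all 15614 rows with limma on log2(scaled TPM + 1), with Benjamini-Hochberg adjustment, and a member was called when its adjusted p was below 0.05. In C17.2, 15 of 217 members were called (6.91%), 4 higher and 11 lower in resistant cells, against 27.3% of all rows tested. In C3.2, 15 members were called (6.91%), 3 higher and 12 lower, against 11.4% of all rows. The share was thus below that of all rows in both clones. By direction, 1.84% of members were called higher and 5.07% lower in C17.2, against 13.4% and 13.9% of all rows. In C3.2 the shares were 1.38% and 5.53%, against 4.46% and 6.90%. Members varied more between libraries: their median SE in C17.2 was 0.42, against 0.095 over all rows, and with a mean TPM of at least 20 their median within-group SD was 0.31 (log2) against 0.061 for protein-coding genes. Of the 217, 189 were called in neither clone, which at this spread does not show that they stayed the same.

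The split into higher and lower depended on the scaling in C17.2. It was 4 to 11 with trimmed-mean factors, 7 to 10 after quantile normalization, 9 to 8 on TPM rescaled over protein-coding genes and 11 to 6 on TPM as deposited, where the median of all rows was itself at 0.13. In C3.2 these settings gave 4 to 10, 3 to 11 and 3 to 7. Directions below are relative to the median gene. Of the called members, 1 in C17.2 (RF00263) and 2 in C3.2 (RF00334 and *SNORA30B*) reached a TPM of 1 in a single group, so the rule itself made them differ, and nothing is read from them.

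By class, SNORD members gave 0 higher and 2 lower in C17.2 and 0 calls in C3.2, where 6 had an unadjusted p under 0.05. SNORA members gave 2 higher and 8 lower in C17.2 and 3 higher and 9 lower in C3.2. SCARNA members gave 1 lower in C17.2 and 2 lower in C3.2. Members with Rfam symbols gave 2 higher in C17.2 and 1 lower in C3.2. The classes held 34 SNORD, 121 SNORA, 22 SCARNA and 40 Rfam-named members. Of all rows tested, 13.4% were called higher and 13.9% lower in C17.2, and 4.46% and 6.90% in C3.2. No class is read as rising or falling from these counts. The median log2 change of SNORD members in C3.2 was -1.63, but this rested on short genes: it was -3.17 in the 20 SNORD members under 120 bases and -0.12 in the 14 of at least 120 bases. In members of at least 120 bases and a mean TPM of at least 20, a subset set after the lengths were seen, the median was -0.12 in C17.2 and -0.19 in C3.2 (100 members), against a median of 0.0 over all rows in both.

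*SNORA84* fell in both clones. It had 105 and 93.0 TPM in C17.2 parental and 53.8 and 62.5 in resistant libraries, and 171 and 192 TPM in C3.2 parental and 127 and 87.3 in resistant libraries. In neither clone did the states overlap. The log2 changes were -0.91 (SE 0.15, adjusted p = 0.00596) and -0.84 (SE 0.15, adjusted p = 0.0188, limma), and their difference was -0.07 (adjusted p = 0.868). Its host *IARS1*, the isoleucyl-tRNA synthetase, fell by 1.39 in C17.2 (adjusted p = 0.00011) and by 0.28 in C3.2 (adjusted p = 0.067). Leaving out 1 library at a time, the call in C17.2 was lost without parental 1 or resistant 1. The call in C3.2 was lost without any C17.2 library or either C3.2 parental library. It was also lost when the C3.2 libraries were fitted alone.

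In C17.2 the largest rise among members of 5 TPM or more on average and without overlap was RF00056, listed at 0 in both parental libraries and at 12.4 and 15.4 TPM in resistant libraries. Against a group at 0 no fold is given (adjusted p = 0.00767, up to 0.064 when a C17.2 library was left out, with the call lost for each of the 4). *SNORA22B* of the chaperonin gene *CCT6A* rose from 2.29 and 2.14 to 14.9 and 10.4 TPM, a log2 change of 1.91 (SE 0.23, adjusted p = 0.00201, limma), and stayed called when any 1 library was left out. *CCT6A* also rose, by 0.54 (adjusted p = 0.00179). *SNORA14A* of *POR* had 7.73 and 7.18 TPM in parental and 14.2 and 35.2 in resistant libraries (log2 change 1.32, SE 0.35, adjusted p = 0.0333), and lost its call (adjusted p up to 0.152) without any of 6 libraries, all but the 2 resistant C17.2 libraries. *SNORA22B* shared 92.8% of aligned positions with *SNORA22* and *SNORA22C*, so its reads may be shared with those copies.

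The 5 largest falls in C17.2 were *SNORA16A*, *SNORA84*, *SNORA71D*, *SNORA57* and *SCARNA2*. *SNORA16A* of *SNHG12* had 33.8 and 24.4 TPM in parental and 0 and 4.61 in resistant libraries (adjusted p = 0.0323), and its call was lost (adjusted p up to 0.164) without any of 5 libraries, both C17.2 parental libraries, C17.2 resistant 1 and both C3.2 resistant libraries. *SNORA71D* had 126 and 109 TPM against 93.1 and 56.4 (log2 change -0.84, SE 0.22, adjusted p = 0.0341). *SNORA57* had 134 and 160 TPM against 120 and 104 (-0.55, SE 0.12, adjusted p = 0.0195), while its host *CSKMT* rose by 0.75. *SCARNA2*, an independently transcribed guide for the U2 spliceosomal RNA, had 167 and 152 TPM against 132 and 115 (-0.53, SE 0.15, adjusted p = 0.047). Neither *SCARNA2* nor *SNORA71D* was past the threshold on TPM as deposited, and *SCARNA2* was not after rescaling over protein-coding genes. With the C17.2 libraries fitted alone, the calls of *SNORA16A*, *SNORA71D*, *SNORA57* and *SNORA14A* were lost. That of *SNORA16A* was also lost with a pseudocount of 0.1 and with no filter. Leaving out libraries ended the call of *SNORA71D* for all but the resistant C17.2 libraries (adjusted p up to 0.175), of *SCARNA2* for all but the resistant C3.2 libraries (up to 0.230) and of *SNORA57* for C17.2 parental 2, C17.2 resistant 2 and both C3.2 parental libraries (up to 0.115).

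Among the highest members, *SNORD10* had 495 and 469 TPM in C17.2 parental and 419 and 412 in resistant libraries. It fell by 0.37 on the log2 scale (SE 0.055, adjusted p = 0.00431, limma) and stayed called in every leave-out, but not on TPM as deposited (adjusted p = 0.0648). *SNORD17* fell by 0.31 (SE 0.073, adjusted p = 0.0221), with 1426 and 1333 against 1173 and 1311 TPM, and was past the threshold neither on TPM as deposited nor after rescaling over protein-coding genes or quantile normalization (adjusted p up to 0.689). Its call was also lost without either C17.2 parental library or C17.2 resistant 1 (up to 0.116). For *SNORD3A* (0.15, SE 0.19), *SNORA73A* (-0.04, SE 0.089), *SNORA73B* (-0.06, SE 0.064), *SNORD22* (-0.02, SE 0.10) and *SNORD118* (-0.27, SE 0.21) the change in C17.2 did not pass the threshold, with adjusted p from 0.398 to 0.914. Of the 9 members listed for pre-rRNA cleavage and other roles, 0 were called in C17.2 and 1 in C3.2. In C17.2, 2 of them had an unadjusted p below 0.05, and in C3.2, 5 (limma).

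In C3.2 the call was *SNORA73B*, with 7552 and 7506 TPM in parental and 6574 and 5855 in resistant libraries. It fell by 0.35 (SE 0.064, adjusted p = 0.0228, limma), and its call was lost on TPM as deposited, after quantile normalization and without any of 6 libraries (all but C17.2 resistant 1 and C3.2 resistant 1, adjusted p up to 0.149). Its copy *SNORA73A* had a log2 change of -0.29 (SE 0.089, adjusted p = 0.093). The host *SNHG3* had 95.0 and 120 TPM in parental and 112 and 113 in resistant libraries (0.01, adjusted p = 0.981). *SCARNA13* of *SNHG10* fell by 0.33 (SE 0.081, adjusted p = 0.0493) and its host by 0.55 (adjusted p = 0.0188). The *SCARNA13* call was lost on TPM as deposited, on TPM rescaled over protein-coding genes, after quantile normalization, without the trend, with no filter and with the C3.2 libraries alone, and without any library but the 2 resistant C17.2 ones (adjusted p up to 0.215 in these leave-outs).

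Of the 3 members called higher in C3.2, *SNORA80D* and *SNORA67* were those of 5 TPM or more on average and without overlap between states. *SNORA80D* of *AIMP2* had 68.7 and 52.2 TPM in parental and 101 and 160 in resistant libraries (log2 change 1.01, SE 0.24, adjusted p = 0.0481), a call kept only when C3.2 resistant 1 was the library left out and otherwise lost (adjusted p up to 0.223). *SNORA67* had 351 and 353 TPM against 478 and 453 (0.34, SE 0.051, adjusted p = 0.0125, limma) and lost its call without either C3.2 parental library (adjusted p up to 0.0799).

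The 5 largest falls were *SNORA77*, *SNORA84*, *SNORA55*, *SNORA47* and *SNORA81*. *SNORA77* of *ATP2B4* had 3.25 and 9.71 TPM in parental libraries and was listed at 0 in both resistant libraries (adjusted p = 0.0175, up to 0.0816 where the call was lost, without either C17.2 parental library, C3.2 parental 2 or either C3.2 resistant library). *SNORA47* of *ZBED3* had 104 and 109 TPM against 74.7 and 70.8 (log2 change -0.61, SE 0.072, adjusted p = 0.00606), and lost its call without either C3.2 parental library (adjusted p up to 0.0595). *SNORA81* of *EIF4A2* had 572 and 578 TPM against 463 and 388 (-0.51, SE 0.10, adjusted p = 0.0295), and *SNORA55* of *PABPC4* had 23.6 and 27.6 against 12.97 and 17.8 (-0.78, SE 0.17, adjusted p = 0.0354). *SNORA81* lost its call without any of 5 libraries (both C17.2 resistant, both C3.2 parental and C3.2 resistant 2, adjusted p up to 0.157) and *SNORA55* without any but C3.2 resistant 2 (up to 0.180). Neither was past the threshold on TPM as deposited. The C3.2 libraries fitted alone gave 3 called members, with 77 calls over all rows. *SNORA47* kept its call there, while *SNORA67*, *SNORA80D*, *SNORA77*, *SNORA81*, *SNORA55* and *SNORA73B* lost theirs.

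**Figure D4:**
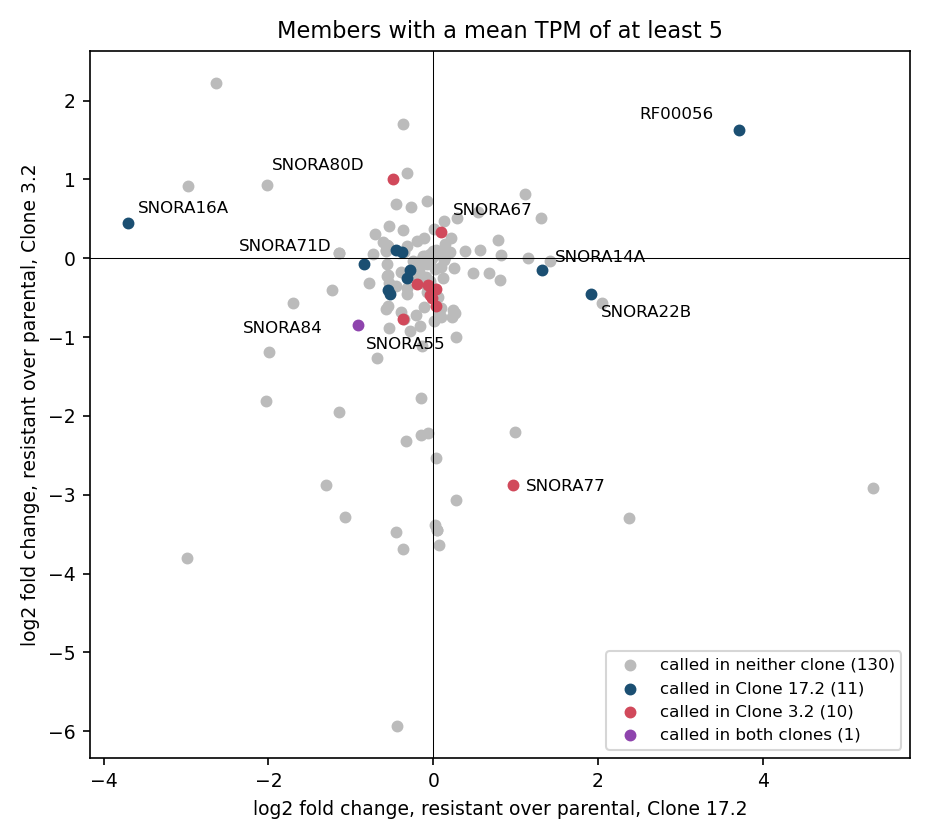
Log2 fold change of resistant over parental cells in C17.2 (horizontal axis) and C3.2 (vertical axis) for the 152 members averaging 5 TPM or more, colored by call. *SNORA84* is the point called in both clones, and gray points far below 0 on the vertical axis include short members such as *SNORD13* at -5.93.

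The difference between the clones' changes was called for 11 of 217 members (5.07%), against 9.91% of all rows. Of these, 3 reached a TPM of 1 in a single group and 1 more had a mean TPM under 5 (*SNORA79*). *SNORA47* changed by 0.03 in C17.2 and -0.61 in C3.2, a difference of 0.63 (SE 0.10, adjusted p = 0.0161, limma). *SNORA22B* differed by 2.37 (SE 0.33, adjusted p = 0.00941), with 7.69 and 10.9 TPM in C3.2 parental and 5.74 and 7.87 in C3.2 resistant libraries. *SNORA71A* had 98.6 and 101 TPM in C17.2 parental and 79.3 and 83.6 in C17.2 resistant libraries, against 321, 285, 345 and 337 in C3.2, and its changes of -0.45 and 0.11 differed by -0.55 (SE 0.11, adjusted p = 0.0295). *SNORA80D* differed by -1.50 (SE 0.34, adjusted p = 0.0454), and the difference for *SNORA77*, with both C3.2 resistant libraries at 0, is given no size (adjusted p = 0.0221). *SNORD10* differed by -0.45 (SE 0.078, adjusted p = 0.0196), the only SNORD member of the 11. Leaving out libraries ended the call of the difference for *SNORA22B* without either C17.2 parental library or C3.2 parental 2 (adjusted p up to 0.0641). It ended it for *SNORA47* without any of the 4 parental libraries (up to 0.0777), for *SNORD10* without those except C3.2 parental 2 or without C17.2 resistant 2 (up to 0.0822), for *SNORA77* without all but C17.2 resistant 2 and C3.2 parental 1 (up to 0.102), for *SNORA71A* without all but C3.2 parental 1 (up to 0.110) and for *SNORA80D* without all but the resistant C3.2 libraries (up to 0.153).

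Hosts and their snoRNAs were set side by side. By position, 189 members lay in an intron of a same-strand gene with a row in the table, 151 in protein-coding and 38 in long non-coding genes, 142 hosts in all. A further 7 lay in introns of long non-coding genes that had no row in the table, and 21 lay in no such intron. The 21 included *SNORD3A*, *SNORD3C*, *SNORD118*, *SNORD13* and *SCARNA2*, which are known to have promoters of their own. In members of at least 120 bases, averaging 20 TPM or more and with a tested host, Pearson's r between the changes of member and host was -0.02 in C17.2 and 0.09 in C3.2, and Spearman's rho 0.02 and 0.10 (90 members, 67 hosts). These are correlations across genes of the same libraries, several sharing a host, and are given as descriptions. In C17.2, 51 of the 90 members had a called host, 21 with a higher and 30 with a lower host, and the median log2 change of the members was -0.11 and -0.24. Member and host moved in the same direction for 30 of the 51. In C3.2, 11 of 19 members with a called host had its direction.

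Hosts with several members were looked at singly, and whether members of 1 host moved together was not tested. In *EIF4A1*, a translation initiation factor gene that rose by 0.17 in C17.2 (adjusted p = 0.0324), *SNORD10* fell, *SNORA67* had a change of 0.09 and *SNORA48* of 0.13. In C3.2 *SNORA67* rose, and *SNORD10* and *SNORA48* had changes of 0.08 and -0.03. In *SNHG17*, which had a change of 0.09 in C17.2 (adjusted p = 0.222), the 4 members with a mean TPM of at least 20 had changes from -0.84 to -0.45 while RF00056 rose. In *SNHG7*, which fell by 1.10 in C17.2 (adjusted p = 4.83e-05), the changes of 3 members ran from -0.57 to -0.06 and none was called.

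**Figure D5:**
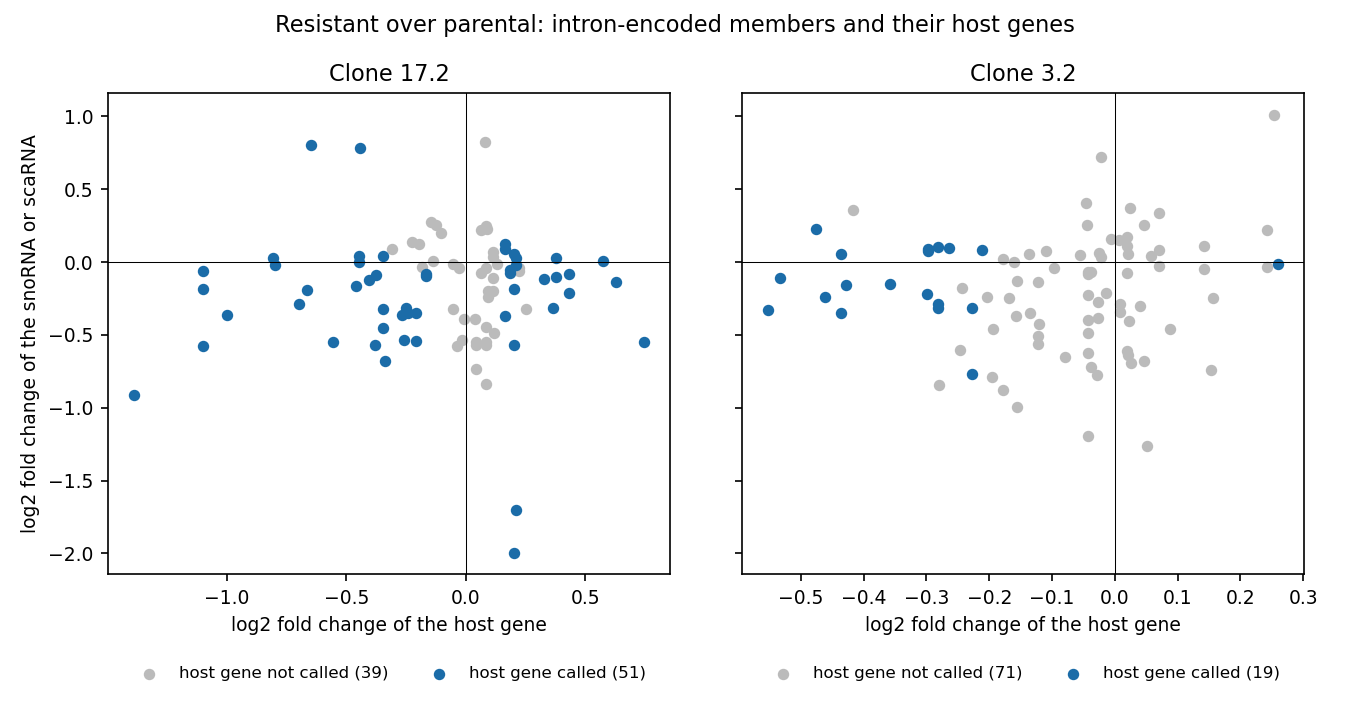
Log2 fold change of each host gene (horizontal axis) against that of the snoRNA or scaRNA in its intron (vertical axis), resistant over parental, for the 90 members of at least 120 bases, averaging 20 TPM or more and with a tested host, in C17.2 (left) and C3.2 (right). Blue points have a host called at an adjusted p below 0.05; the points spread around 0 on the vertical axis over the whole range of host changes.

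A list of mostly long non-coding hosts was followed. It also held the protein-coding gene *TMEM107*, which was called in neither clone. Of 27 listed hosts tested, 5 rose and 11 fell in C17.2, where 27.3% of all rows were called. In C3.2, where 11.4% of all rows were called, 1 rose and 7 fell. The largest called changes in C17.2 were those of *SNHG7* and *EPB41L4A-AS1*, which had 30.3 and 28.8 TPM in parental and 17.1 and 14.9 in resistant libraries (adjusted p = 0.00118). In C3.2 they were those of *SNHG5*, which had 423 and 417 TPM in parental and 301 and 290 in resistant libraries (-0.57, SE 0.045), and *SNHG10*. Many snoRNAs of such hosts were under the length edge: all 3 in *SNHG29*, all 3 in *ZFAS1*, all 3 in *SNHG16* and 71 of the 81 in *SNHG14* were under 95 bases. Their level could not be followed.

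The proteins of the particles were given by their RNA, and the counts stand beside called shares of all rows of 27.3% in C17.2 and 11.4% in C3.2. Of the 4 core box C/D proteins, *NOP56* (0.38, SE 0.044, adjusted p = 0.00164) and *SNU13* (0.31, SE 0.042) rose in C17.2. Of the 4 core box H/ACA proteins, *NHP2* (0.47, SE 0.055), *GAR1* (0.34, SE 0.058) and *NOP10* (0.26, SE 0.044) rose there, and *DKC1* had a change of 0.12 (adjusted p = 0.407). None of these 8 was called in C3.2 by limma, with 2 of the box C/D and 1 of the box H/ACA genes at an unadjusted p below 0.05. Among 8 box C/D assembly factors *RUVBL1* and *RUVBL2* rose and *TAF9* fell in C17.2. None of the 3 H/ACA assembly factors was called, while *GEMIN2* of 5 Cajal body factors, and *USB1* and *TENT4B* of 12 debranching and trimming factors, rose in C17.2. No gene of these last lists was called in C3.2 by limma, with 1, 0, 1 and 2 in their order here at an unadjusted p below 0.05. The difference between the clones was called for *NOP10* (0.33, adjusted p = 0.026) and *TENT4B* (0.41, adjusted p = 0.035).

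Identity of the cells was checked by markers. All 6 B-lineage markers were above 1 TPM in every library, with *PAX5* at 116 to 193 TPM, and 9 of 10 T-lineage, myeloid, erythroid and epithelial markers stayed below 1 TPM in every library, with *CD3D* and *EPCAM* at 0 in all. The exception, *LYZ*, had 0.47 to 2.18 TPM. Of the B-lineage markers, 0 rose and 3 fell in resistant C17.2 cells, and 1 rose and 3 fell in resistant C3.2 cells, the most *CD79B* in both (-1.51 and -1.03, limma). The part of these changes in the snoRNA results was not tested. *CTCF* RNA, whose protein and not RNA is the target of 5-Ph-IAA, had 32.2 to 35.4 TPM in parental and 41.5 to 54.7 in resistant libraries. Trimmed-mean factors ranged from 0.893 to 1.16. In bulk RNA fewer cells with an RNA and less of it per cell cannot be told apart.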

How the data were processed

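RNA-seq libraries were made by the authors with rRNA depletion, and all 8 were used. Per the submitters' processing notes and the study's methods, the authors trimmed the reads (TrimGalore 0.6.3), mapped them to GRCh38 (STAR 2.7.9a), estimated gene levels (RSEM 1.3.1) and deposited TPM. No further scaling is stated for the deposited TPM. Because TPM does not retain read totals, depth and counting precision are unknown. The labels give single-end reads and the methods paired-end reads. How reads of short or repeated snoRNAs were placed is not given in the sources used here.

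The members, lists and tests were chosen with earlier results of these data known. Rows reaching 1 TPM in any library entered the fit (15614 of 60754). Library factors came from log ratios trimmed by 0.3 and means trimmed by 0.05 at either end, and log2(scaled TPM + 1) was fitted with limma 3.58.1 (R 4.3.3; lmFit, eBayes with trend) in 1 model of 4 groups, with tests two-sided. The study's limma-voom fit needs counts and was not run. Fold changes are on this log2 scale, which understates changes of low genes. For 2 against 2 libraries the smallest exact permutation p is 0.333, above any usual threshold. The fit was tried on simulated normal log2 values with 200 of 15614 rows changed by a log2 of 1. It called 76.5% of these, and 4.38% of its calls were false. The simulation did not model libraries dropping to 0, so it does not bear on the short members. Named members were the 5 highest of each class, the 5 largest called rises and falls per clone and the 5 largest called differences between clones. Rises, falls and differences needed a mean of 5 TPM or more, and rises and falls also states not overlapping within the clone. Also named were the snoRNAs listed for pre-rRNA cleavage and other roles and, of each list of proteins and hosts, the 2 largest called changes. Other members and genes, among them *SNORA10*, *SNORA24*, *SNORA64*, *SNORD46*, *SNORD97* and members called below 5 TPM, were named after their values were seen. Positions, lengths and sequences came from Gencode release 44 by gene identifier, which all 217 members matched. A host was a same-strand protein-coding or long non-coding gene with the member in an intron, and the one with the highest mean TPM where several qualified. Scripts ran in Python 3.11.15 with pandas 2.3.3, and figures were drawn with matplotlib 3.10.9. Other scalings, pseudocounts, filters and models, and fits without single libraries, were compared.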

Additional observations from a re-analysis of the deposited data

Results flagged for a closer look

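The change from parental to resistant cells differed between the clones for 11 of 217 members (5.07%), by the interaction term of the limma fit (C17.2 minus C3.2, log2). Over all rows the share was higher, 9.91%. The difference was positive for *SNORA77* (3.84), RF00334 (2.43), *SNORA22B* (2.37), *SNORA30B* (2.22), RF00263 (2.01), *SNORA47* (0.63) and *SNORA2C* (0.43), and negative for *SNORA79* (-2.40), *SNORA80D* (-1.50), *SNORA71A* (-0.55) and *SNORD10* (-0.45). RF00334, *SNORA30B* and RF00263 reached a TPM of 1 in a single group, which the choice of members favors. *SNORA77*, *SNORA79* and these 3 each had a group at 0, so the sizes of their differences are set by the pseudocount and are no folds. *SNORA79* had 2.13 and 1.99 TPM in C17.2 parental libraries and was at 0 in both resistant ones, with 3.58 and 2.51 against 5.31 and 7.27 in C3.2. *SNORA2C* had 414 and 418 TPM in C3.2 parental and 344 and 320 in resistant libraries, and 255, 249, 300 and 278 in C17.2. Groups of 2 libraries are too small for a test of single outlying libraries.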

How the results depend on the processing

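Called members numbered 15 in C17.2, 15 in C3.2 and 11 for the difference. With no filter beyond a TPM above 0 these were 7, 7 and 7, and with the 4 libraries of C3.2 alone 3 were called there. Over all rows the calls, 4261, 1773 and 1548, also changed, to 3781, 1167 and 1126 with no such filter and to 77 with C3.2 alone. Leaving out 1 library gave 7 to 22 in C17.2 (7 without C17.2 parental 2), 7 to 34 in C3.2 (8 without either C17.2 parental library, 7 without C3.2 parental 1 and 34 without C3.2 resistant 1) and 5 to 30 for the difference (5 without C17.2 parental 2 and 30 without C3.2 resistant 1). Over all rows the calls in these fits were 2526 in C17.2, then 988, 981, 326 and 1789 in C3.2 (in the order C17.2 parental 1, C17.2 parental 2, C3.2 parental 1, C3.2 resistant 1), and 596 and 1748 for the difference. Such a fit has fewer residual degrees of freedom and assumes that the lone library varies like the others. Without C3.2 resistant 2, the library with the highest length edge, the counts were 22, 13 and 12, with 4538, 851 and 1166 over all rows. Of the alternatives of the named calls 247 kept direction and side of the threshold, 163 kept direction and lost the threshold and 0 turned direction. Rescaled over protein-coding genes, the summed TPM of the members was 32883 and 34374 in C17.2 parental, 34722 and 32834 in C17.2 resistant, 63955 and 61063 in C3.2 parental and 59054 and 60386 in C3.2 resistant libraries, so the parental and resistant sums of C17.2 then overlapped. For the comparison of clones, alternatives chosen after seeing the data gave 33 to 83 members higher in C3.2, against 47, and 4 to 21 lower, against 3. They were 83 and 20 between parental libraries alone and 65 and 21 between resistant ones, where fewer libraries must not overlap, and the lower count was 8 on TPM as deposited and 5 without C3.2 resistant 2. The cause of the other changes was not tested. No paired analysis was possible because the labels number no replicates across groups. TPM gives no depth, so a level of 0 has no limit here.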
